A study of Homo sapiens with 18 samples.

Results

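RNA was compared between 3 libraries of HAP1 cells labelled as 6 days without doxycycline and 3 libraries labelled as 3 days without it, 6 of the 18 libraries of the series. HAP1 is a human line with a nearly haploid set of chromosomes, obtained from KBM-7 leukaemia cells. All 6 libraries came from the line labelled delSARS2+SARS2-1xFLAG, in which SARS2 was deleted and a FLAG-tagged SARS2 gene was added (the deleted line below). Cells grew in IMDM medium with 15 ng/mL doxycycline until the drug was withdrawn, so the day 6 and day 3 cells share the deletion, the added gene and the lack of doxycycline and differ by the labelled time. The added gene's promoter, and whether the line is 1 clone, are unknown from the sources used here. Levels are also given for the deleted line kept on doxycycline and for its day 9 group, and a comparison within the unmodified parental line, without against with doxycycline, is set beside the main one. Each of these groups holds 3 libraries. All genes were examined: 21615 of the 59251 genes in the table passed a filter on low counts and were tested.

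SARS2 encodes the mitochondrial seryl-transfer RNA synthetase, an enzyme that loads serine onto the transfer RNAs used by the ribosomes inside the organelle. Those ribosomes make a small set of respiratory chain proteins, and all other mitochondrial proteins are encoded in the nucleus and imported. In human cell lines, impaired mitochondria are known to signal through the protease OMA1 and its substrate DELE1 to the kinase EIF2AK1 (HRI), which phosphorylates the translation initiation factor eIF2alpha. Bulk translation then slows while the transcription factor ATF4 is made in larger amounts and turns on genes for amino acid supply and stress signalling.

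The day 6 libraries held 79576230, 88705512 and 96123623 counts, and the day 3 libraries 81473076, 93373304 and 90732050. Levels are given below as CPM, counts per 1000000 of the library's total scaled by the TMM method. Within each group, libraries differed by more than counting noise (chi-square per gene 11.1 to 32.6 at day 6 and 4.97 to 7.91 at day 3), so none was a copy of another, and Spearman's rho across genes was 0.992 or higher. SARS2 itself, which the design text describes as depleted over these days, had 23.2, 25.8 and 25.02 CPM in the day 6 libraries, against 30.5, 31.9 and 32.4 CPM in the day 3 libraries. The libraries labelled day 6 lay below those labelled day 3 without overlap (log2 fold change of day 6 over day 3, −0.36 ± 0.10 (SE), adjusted p = 0.0058), a call lost once the trend of fold changes with gene length described near the end was removed (−0.25, adjusted p = 0.075). Counts of the deleted locus and of the added gene fall on 1 name and cannot be separated, and the deleted line had 24.2 ± 0.923 CPM on doxycycline and 41.8 ± 7.16 CPM at day 9 (SD, n = 3 each). SARS2 RNA without doxycycline thus averaged no less than on it at any of the 3 times, which goes against a depletion at the level of these counts, and day 6 and day 3 below mean the libraries so labelled. Of 17 haematopoietic marker genes, 12 stayed under 1 CPM in all 6 libraries, and GATA1, HBG1, HBG2 and MPO, which define red cell and granulocyte lineages, had 0 counts. The summed level of these markers was 77.9 to 78.7 CPM at day 6 and 78.00 to 81.2 CPM at day 3, most of it from GATA2, a factor of blood stem cells (48.03 ± 0.529 CPM at day 6 and 56.4 ± 2.11 CPM at day 3), and KIT, a growth factor receptor (19.9 ± 2.17 CPM at day 6 and 12.6 ± 0.269 CPM at day 3; SD, n = 3 each). On the same log2 scale KIT rose (0.66, adjusted p = 1.9e-05), and GATA2 fell (−0.23, adjusted p = 0.014), which did not hold without day 3 replicate 3 (−0.20), on library size alone (−0.17) or without the length trend (−0.18). Epithelial markers summed to 52.02 to 68.9 CPM at day 6 and 51.8 to 56.1 CPM at day 3, mostly from the keratin KRT18 (0.01, adjusted p = 0.93), with CDH1 at 2 counts in all. Of 7 tested, 4 rose and none fell (median 0.68), among them the keratin KRT8 (1.30) and the splicing factor ESRP1 (11.6 ± 0.919 CPM at day 6 and 7.24 ± 0.280 CPM at day 3, SD, n = 3 each). In the fit limited to genes with a mean of at least 1 CPM over all 18 libraries, 2 epithelial markers rose. The summed mesenchymal markers, mostly VIM (−0.19, adjusted p = 0.059), came to 909 to 932 CPM at day 6 and 953 to 979 CPM at day 3. Of 14 tested, 5 rose, among them ZEB1 (0.48) and COL1A1 (0.88), and FN1 fell (−0.88; median of the list 0.31), while 3 rose without day 3 replicate 3 and 2 fell without the length trend. The part of these markers in the results below was not tested.

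Expression differed widely between day 6 and day 3. With edgeR's quasi-likelihood test and an adjusted p under 0.05, 9234 genes were called (42.7% of those tested), of which 4734 were higher at day 6 (21.9%) and 4500 lower (20.8%). The day 6 and day 3 libraries did not overlap in CPM for 12888 genes (59.6%), being higher at day 6 for 30.2% and lower for 29.4%, and 6433 genes (29.8%) were called with all libraries and also without each of the 6 in turn. The change was at least 2-fold in 1346 of the genes that rose (6.23% of all tested) and 810 of those that fell (3.75%). Of the gene lists examined, those for the proteasome, ribosome assembly, metallothioneins and heat shock had the highest shares of members that fell, and those for ATF4 targets and FOXO targets the highest shares that rose. Log2 fold changes are day 6 over day 3 throughout, each with its standard error (SE) where it is given in full, and figures in brackets after a gene name are log2 fold changes. Of 40 list counts of 1 to 5 members, 19 moved by more than 1.5 times without 1 of the 6 libraries. Fewer cells of a kind and less RNA per cell cannot be told apart in these bulk samples.

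**Figure D1:**
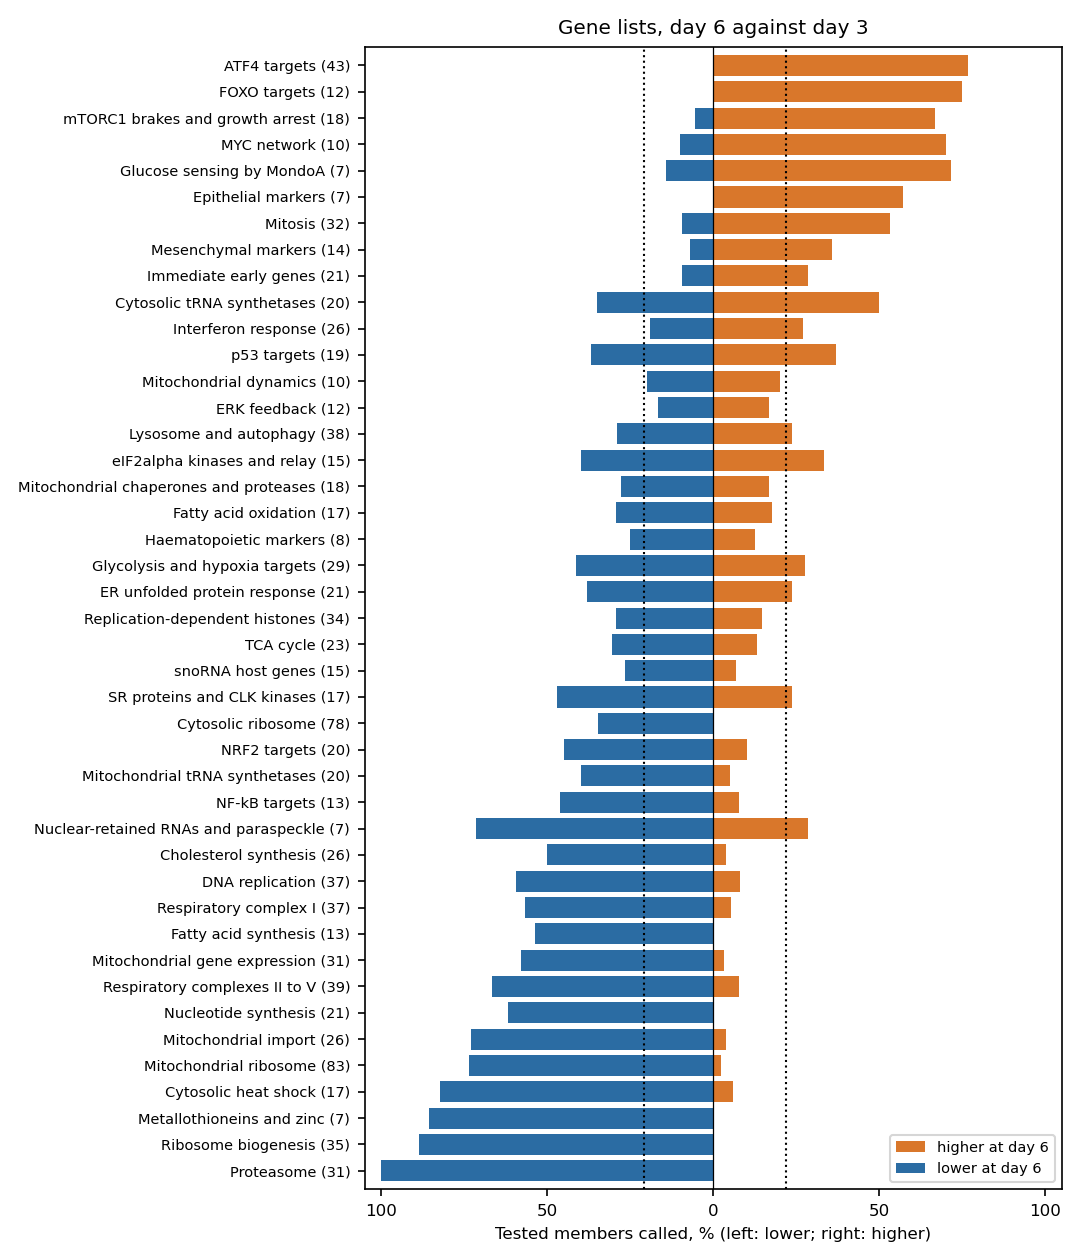
Share of tested members of each gene list that were higher (right, orange) or lower (left, blue) at day 6 than at day 3 at an adjusted p under 0.05, in percent, with the number of members tested after the list's name. Dotted lines mark the shares over all tested genes, 21.9% higher and 20.8% lower. Proteasome genes lie at 100% lower and ATF4 targets at the right-hand end.

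The same kind of change was seen in the parental line, which carries no SARS2 deletion. There, without against with doxycycline, 8519 genes were called (39.4%), of which 4540 were higher (21% of all tested) and 3979 lower (18.4%). This comparison shares no library with day 6 against day 3. Of the 4734 genes that rose at day 6, 2774 also rose in parental cells without doxycycline (58.6% of them, and 61.1% of the parental genes that rose) and 57 fell. Of the 4500 that fell, 2511 also fell there (55.8% of them, and 63.1% of the parental genes that fell) and 113 rose. Across all 21615 genes (genes are no independent replicates) the log2 fold changes of both comparisons had a Spearman's rho of 0.59, and it was 0.72 across the 10563 genes of at least 10 CPM. A test of the difference between both changes called 1764 genes (8.16%), 760 with a more positive (3.52%) and 1004 with a more negative (4.64%) change from day 3 to day 6 than in parental cells. That count was 2695 with DESeq2. It was 1105, 1042 and 1041 without day 3 replicate 1, 2 or 3, 1059, 1106 and 1077 without parental doxycycline replicate 1, 2 or 3, and 1086 without day 6 replicate 3. Most results below therefore have the parental change beside them.

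**Figure D2:**
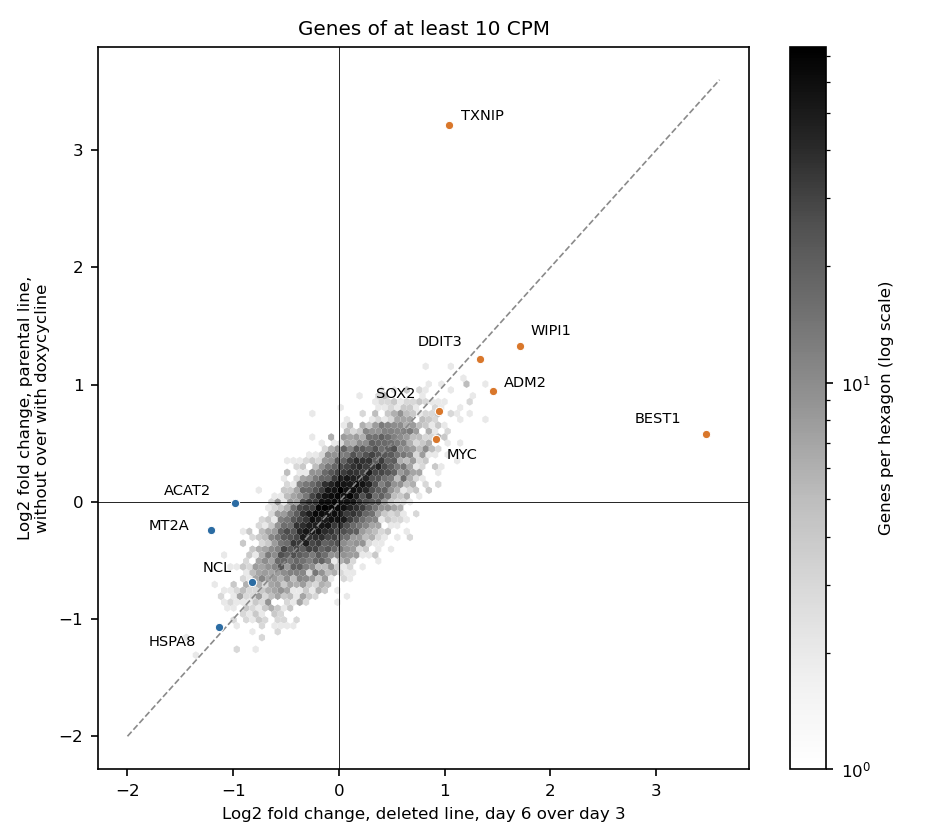
Log2 fold change of parental cells without against with doxycycline (vertical) against log2 fold change of day 6 over day 3 in the deleted line (horizontal) for the 10563 genes of at least 10 CPM, as a density of genes, with named genes marked. TXNIP lies far above the dashed line of equal change and BEST1 far to its right.

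Targets of ATF4 rose as a group. Of 43 tested, 33 were higher at day 6, none was lower and 10 did not pass, with a median log2 fold change of 0.41 against 0.01 over all genes. The parental comparison also gave 33 higher and none lower (median 0.64), and the difference between both changes passed for 8 targets, 3 more positive and 5 more negative at day 6. Among the stress regulators of the list, 13 of 16 rose. DDIT3 (CHOP), a transcription factor linked to cell death under stress, had 45.01, 58.1 and 48.5 CPM in the day 6 libraries, against 21.5, 18.6 and 20.2 CPM in the day 3 libraries (1.33 ± 0.12 (SE), adjusted p = 2.2e-07). TRIB3, a pseudokinase that restrains ATF4, had 90.4, 71.6 and 85.98 CPM in the day 6 libraries, against 43.4, 48.6 and 45.03 CPM in the day 3 libraries (0.86 ± 0.09 (SE), adjusted p = 7.8e-07). Day 6 libraries lay above all day 3 libraries for both genes. KLHL24 (1.32), ATF3 (0.52) and the mTORC1 inhibitor SESN2 (0.45) rose as well, and ATF5, which controls mitochondrial stress genes, rose by a smaller amount (0.37, adjusted p = 0.018), a call that did not hold without day 3 replicate 1 (0.32), day 3 replicate 3 (0.36), day 6 replicate 1 (0.26) or day 6 replicate 3 (0.34).

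Secreted ATF4 targets showed the widest change. GDF15, a stress hormone that acts on the brainstem, had 9.47, 10.04 and 10.4 CPM in the day 6 libraries, against 0.596, 0.355 and 0.552 CPM in the day 3 libraries (4.32 ± 0.34 (SE), adjusted p = 4.2e-08). The day 6 libraries lay close together and far above all day 3 libraries, and the change exceeded the parental one (difference 2.24, adjusted p = 0.012). INHBE, an activin subunit, had 14.5, 12.1 and 14.9 CPM in the day 6 libraries, against 2.81, 2.85 and 2.74 CPM in the day 3 libraries (2.301 ± 0.27 (SE), adjusted p = 2.8e-06). ADM2 (1.46), VEGFA (0.84) and STC2 (0.74) also rose, ADM2 and STC2 being peptide hormones and VEGFA the growth factor of blood vessels. FGF21, the other classic hormone of mitochondrial stress, stayed at or below 0.0479 CPM in all 6 libraries, too few counts to detect a difference.

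Amino acid genes rose by less, and transporters were split. ASNS, which makes asparagine, had 9.29, 14.6 and 10.7 CPM in the day 6 libraries, against 5.61, 4.21 and 3.73 CPM in the day 3 libraries (1.35 ± 0.19 (SE), adjusted p = 2.0e-05), with no overlap. CHAC1, which degrades glutathione, had 32.5, 27.01 and 31.6 CPM in the day 6 libraries, against 17.5, 18.9 and 17.7 CPM in the day 3 libraries (0.75 ± 0.13 (SE), adjusted p = 1.1e-04), and its rise was smaller than in parental cells (difference −1.17, adjusted p = 7.2e-04). The serine pathway enzymes PHGDH (0.41) and SHMT2 (0.36) rose. Of 10 amino acid transporters, 7 rose, among them the cystine carrier SLC7A11 (0.53) and the glutamine carrier SLC1A5 (0.39). SLC7A5 (−0.09, adjusted p = 0.28), SLC38A2 (0.01, adjusted p = 0.93) and SLC6A9 (0.06, adjusted p = 0.62), carriers of large neutral amino acids, of small neutral amino acids and of glycine, did not pass.

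Promoters of these genes were read from RefSeq (GRCh38.p14, 250 bases before to 50 after the start) for the composite element to which ATF4 binds together with C/EBP proteins, searched as TGATGNAA on both strands. It stood in 6 of the 32 ATF4 targets with a promoter sequence, in 5 of 24 that rose (ATF3, CHAC1, ASNS, SLC3A2 and SLC7A1) and in 1 of 8 that did not pass (FGF21). It was found in 3.67% of all 27305 promoters and in 269 of the 14347 tested genes that have one (1.87%). Among the cytosolic transfer RNA synthetases it stood in 6 of 16, of which 4 rose. The stretches below are shown to let the element be compared between targets that rose and FGF21, which was hardly expressed, and capitals mark the match.
ASNS, chr7:97872439-97872506, minus strand: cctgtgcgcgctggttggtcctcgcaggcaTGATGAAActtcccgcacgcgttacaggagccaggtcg
CHAC1, chr15:40953232-40953299, plus strand: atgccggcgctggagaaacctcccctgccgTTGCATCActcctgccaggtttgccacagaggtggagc
ATF3, chr1:212565186-212565253, plus strand: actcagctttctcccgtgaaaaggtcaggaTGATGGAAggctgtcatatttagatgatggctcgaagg
AARS1, chr16:70289656-70289723, minus strand: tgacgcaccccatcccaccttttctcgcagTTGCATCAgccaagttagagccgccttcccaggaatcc
FGF21, chr19:48755440-48755507, plus strand: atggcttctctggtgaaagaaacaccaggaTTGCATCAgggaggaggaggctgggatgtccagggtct
The match lies on the strand of the gene in ASNS and ATF3 and on the other strand in CHAC1, AARS1 and FGF21. These letters describe the sequence and do not show that a factor was bound.

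The signalling steps around ATF4 moved in both directions. ATF4 itself, which is mainly controlled through translation, had 454, 480.1 and 445 CPM in the day 6 libraries, against 473, 476 and 484 CPM in the day 3 libraries and did not pass (−0.06 ± 0.06 (SE), adjusted p = 0.48), and its sign turned positive on library size alone (0.01) or without the length trend (0.09). Of the eIF2alpha kinases, EIF2AK4 (GCN2, the sensor of uncharged transfer RNA) rose (0.28, adjusted p = 2.6e-04). EIF2AK1 rose (0.17, adjusted p = 0.018), a call that did not hold without day 3 replicate 1 (0.15), day 3 replicate 3 (0.17) or day 6 replicate 2 (0.13). EIF2AK3 (PERK, the sensor of the endoplasmic reticulum) rose (0.29, adjusted p = 0.018), a call that did not hold without day 3 replicate 2 (0.23), day 6 replicate 2 (0.19) or day 6 replicate 3 (0.28), and both calls were lost without the length trend (0.13 and 0.20). DELE1 did not pass (−0.06, adjusted p = 0.48), and the fall of OMA1 (−0.25, adjusted p = 0.027) did not hold without day 3 replicate 1 (−0.25) or 2 (−0.23), or day 6 replicate 2 (−0.26) or 3 (−0.23). Subunits of eIF2B, the exchange factor that recharges eIF2, fell: EIF2B1 had 73.8, 69.5 and 70.6 CPM in the day 6 libraries, against 104, 106 and 107 CPM in the day 3 libraries (−0.57 ± 0.06 (SE), adjusted p = 6.1e-07), and EIF2B4 (−0.56), EIF2B5 (−0.42) and EIF2B2 (−0.40) followed. Of the 6 translation factors in this list 5 fell, and in parental cells without doxycycline 5 fell as well (median −0.24). The difference between both changes passed for 1 of the 6, more negative at day 6. PPP1R15A (GADD34, 0.55) and PPP1R15B (0.43), subunits of the phosphatase that reverses the eIF2alpha mark, rose.

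Synthetases of the cytosol and of mitochondria moved differently. Of 20 cytosolic synthetases, 10 rose and 7 fell. SARS1, the cytosolic seryl-transfer RNA synthetase, had 419, 450.4 and 427 CPM in the day 6 libraries, against 296, 293 and 288 CPM in the day 3 libraries (0.56 ± 0.07 (SE), adjusted p = 6.6e-06), and AARS1 (0.58) and LARS1 (0.47) rose as much. The glutamine enzyme QARS1 (−0.35) and the phenylalanine enzyme subunit FARSA (−0.65) fell. Of 20 mitochondrial synthetase genes, 8 fell, led by AARS2 (−0.85) and LARS2 (−0.52), and NARS2 alone rose (0.32, adjusted p = 0.01), a call that did not hold without day 6 replicate 2 (0.28) and without the length trend (0.17). In parental cells without doxycycline 10 cytosolic synthetases rose and 5 fell, and 10 mitochondrial ones fell and 1 rose.

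**Figure D3:**
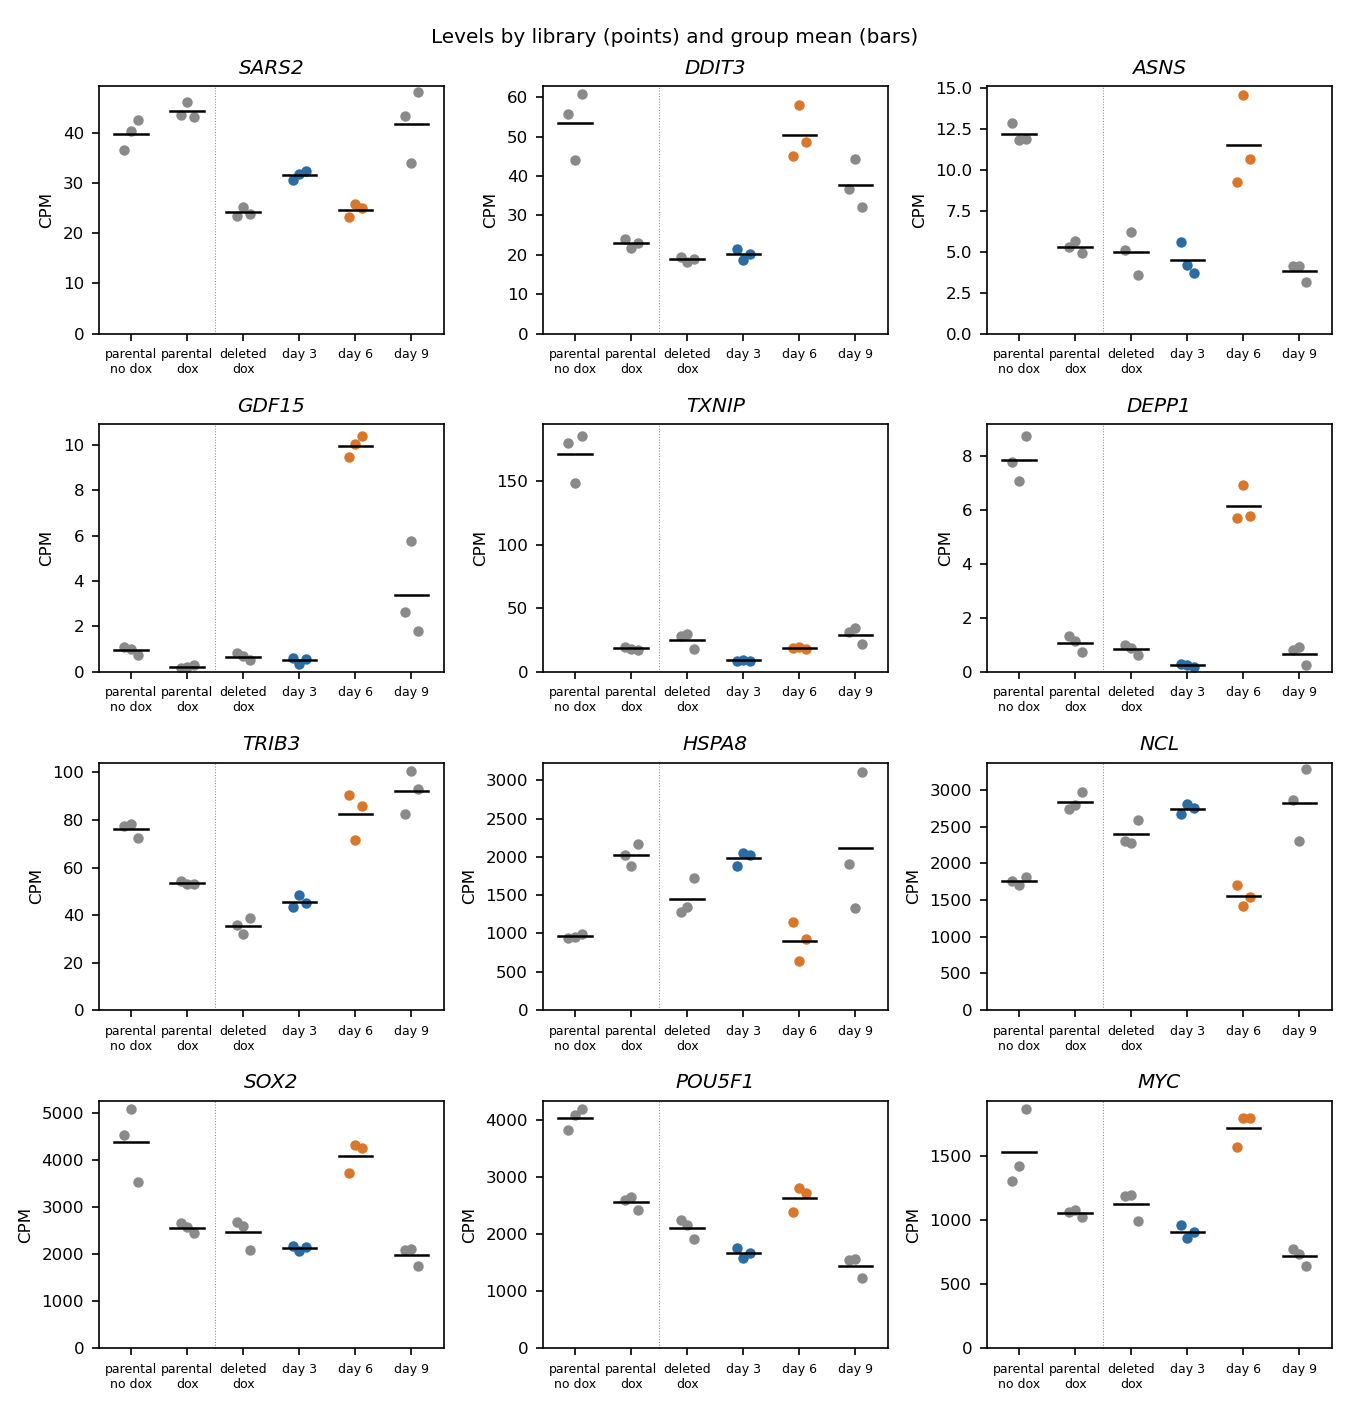
Level in CPM (vertical, linear from 0) of 12 genes in each of the 18 libraries (points) with the mean of each group (bar), for parental cells without and with doxycycline and for the deleted line on doxycycline and at day 3, 6 and 9. DDIT3, ASNS, GDF15 and DEPP1 are higher at day 6 than at day 3, HSPA8 and NCL are lower, and in each of these panels day 9 does not continue the change from day 3 to day 6.

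Genes for making ribosomes and for protein quality control fell together. Of 35 ribosome biogenesis genes, 31 were lower at day 6, none was higher, and the median was −0.50. NCL (nucleolin), an abundant protein of the nucleolus, had 1702, 1421 and 1540.3 CPM in the day 6 libraries, against 2669, 2808 and 2757 CPM in the day 3 libraries (−0.82 ± 0.09 (SE), adjusted p = 2.1e-06), well apart. NOP16 (−0.95) and UTP4 (−0.74), which act in ribosomal RNA processing, and POLR1A (−0.82), the largest subunit of the polymerase for ribosomal RNA, fell too. Parental cells without doxycycline gave 33 lower of 35 (median −0.53), and the difference between both changes passed for none of the 35 with edgeR. All 31 proteasome subunit genes fell (median −0.43; 28 of 31 without the length trend), with PSMD2, a scaffold of the regulatory particle, at 259.7, 249.6 and 258 CPM in the day 6 libraries, against 424, 445 and 441 CPM in the day 3 libraries (−0.77 ± 0.05 (SE), adjusted p = 6.0e-09). In parental cells 23 of the 31 fell.

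Of 17 cytosolic heat shock genes 14 fell, with a median of −0.54. HSPA8, the constitutive HSP70 chaperone, had 1148, 639 and 932 CPM in the day 6 libraries, against 1886, 2047 and 2022 CPM in the day 3 libraries (−1.13 ± 0.22 (SE), adjusted p = 3.4e-04). All day 6 libraries lay below every day 3 library. HSP90AA1 and HSP90AB1, the cytosolic HSP90 chaperones and among the 5 most abundant genes that fell, fell as well. HSP90AA1 averaged 1938 ± 249.6 CPM at day 6 and 3782 ± 126 CPM at day 3, and HSP90AB1 averaged 1973 ± 66.6 CPM at day 6 and 2826 ± 63.4 CPM at day 3 (SD, n = 3 each). DNAJB1 (−0.95), DNAJA1 (−0.98) and CHORDC1 (−0.71), co-chaperones, fell, whereas HSF2, a heat shock transcription factor, rose (0.39, adjusted p = 4.1e-04). In the deleted line the summed level of the 17 genes was 9319 to 10857 CPM on doxycycline. Without it the sum was 10986 to 11610.4 CPM at day 3, 6002 to 7397 at day 6 and 11297 to 15643 at day 9. Within that line day 6 thus stood apart from both neighbouring times. Parental cells without doxycycline showed a like fall, in 16 of the 17 genes (median −0.49). Their sum for the 17 was 7449 to 7843 CPM, against 11637 to 12693 CPM with the drug. The difference between both changes passed for 1 of the 17, more positive at day 6. Unfolded protein response genes of the endoplasmic reticulum moved in both directions. Of 21 genes 5 rose (23.8%) and 8 fell (38.1%), against 21.9% and 20.8% of all genes, so the share that rose lay close to that of all genes. Only 4 or 5 fell without day 3 replicate 2, day 3 replicate 3, day 6 replicate 3 or the length trend. Of its chaperones, CALR fell (−0.36, adjusted p = 0.0018; −0.21 and not passing without the length trend), and HSPA5 did not pass (−0.11, adjusted p = 0.51). HERPUD1 (1.23), which helps degrade its proteins, and the sensor kinase ERN1 (0.90) rose.

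Nuclear genes for mitochondrial proteins were mostly lower. Of 83 mitochondrial ribosomal protein genes, 61 fell and 2 rose (median −0.33), and with the length trend removed 38 fell (median −0.21). MRPL27 of the large subunit had 20.8, 17.4 and 18.2 CPM in the day 6 libraries, against 34.8, 36.4 and 33.9 CPM in the day 3 libraries (−0.90 ± 0.08 (SE), adjusted p = 2.4e-07). MRPS11, MRPS15 and MRPS16 of the small subunit (−0.59, −0.59 and −0.49) fell likewise. MRPS12, which starts next to SARS2 on the opposite strand, fell as well (−0.84, adjusted p = 1.2e-04). In parental cells without doxycycline 52 of the 83 fell, as did 14 of 26 genes for mitochondrial import. Of 26 import genes, 19 fell, with TIMM13, a chaperone of the space between the membranes, at 88.9, 85.9 and 84.4 CPM in the day 6 libraries, against 159, 161 and 157 CPM in the day 3 libraries (−0.88 ± 0.08 (SE), adjusted p = 1.4e-07) and the receptor TOMM22 lower too (−0.72), and TOMM20 was the 1 that rose (0.23, adjusted p = 0.011), a call that did not hold without day 6 replicate 2 (0.14).

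Respiratory chain genes fell by less. Of 37 genes of complex I, which takes electrons from NADH, 21 fell and 2 rose (median −0.28), and of 39 genes of complexes II to V, which carry electrons to oxygen and make ATP, 26 fell and 3 rose (median −0.25). Without the length trend the counts of genes that fell were 13 of 37 and 11 of 39. NDUFA8 of complex I averaged 53.9 ± 2.55 CPM at day 6 and 74.5 ± 2.01 CPM at day 3 (SD, n = 3; −0.47, adjusted p = 1.4e-05), and NDUFS4 went the other way (0.44, adjusted p = 0.002). ATP5MC1 and ATP5MC3, copies of the gene for the c ring of ATP synthase, fell (−0.64 and −0.56). In the parental comparison only 10 of the 37 and 10 of the 39 fell, and the difference between both changes passed, toward a deeper fall at day 6, for 6 and 7 of them. TRMT10C and HSD17B10, subunits of the enzyme that cuts mitochondrial transfer RNAs free at their 5′ end, fell (−1.09 and −0.60). The mitochondrial chaperonin genes HSPD1 (−0.50) and HSPE1 (−1.10) fell while CLPX, a protease subunit that unfolds its substrates, rose (0.41, adjusted p = 1.9e-05); counts of HSPE1 are uncertain because it lies in a readthrough locus. The 37 genes of the mitochondrial chromosome had 0 counts in every library, so the products of the mitochondrial ribosome themselves were not measured.

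The direction of cytosolic ribosomal protein genes depended on the length trend. Of 78 genes 27 fell and none rose (median −0.15), but without the length trend 4 fell and 7 rose (median 0.01). The number that fell was 14 without day 6 replicate 3 and 17 without day 3 replicate 2, and none rose in either fit. RPSA was among those that fell (−0.35, adjusted p = 1.2e-04).

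Genes of autophagy and mitochondrial turnover were divided. PINK1, a kinase that gathers on damaged mitochondria, rose (0.32, adjusted p = 0.04), a call that did not hold without each of the 6 libraries in turn (0.27 to 0.36). WIPI1, which acts early in autophagosome formation, rose (1.71, adjusted p = 5.6e-09) with GABARAPL1 (1.05), while BECN1 fell (−0.57). Over all 38 lysosome and autophagy genes tested, 9 rose (23.7%) and 11 fell (28.9%), against 21.9% and 20.8% of all genes. Without day 6 replicate 2, day 3 replicate 2 or the low-count filter 5 of the 38 rose. The parts of the list went opposite ways in the main fit. Of 15 autophagy genes 7 rose and 2 fell, and of 23 lysosome genes 2 rose and 9 fell. Without the length trend 5 autophagy genes rose and 4 fell, so their direction was not kept, and 4 lysosome genes rose and 9 fell. In parental cells without doxycycline 3 autophagy genes rose and 3 fell, and 7 lysosome genes rose and 8 fell.

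Lipid synthesis genes were lower at day 6, and here the parental change differed. Of 26 cholesterol synthesis genes 13 fell and 1, the regulator SREBF2, rose (median −0.35), against 7 higher and 5 lower in parental cells (median 0.24). The difference between both changes passed for 12 of the 26, each more negative at day 6. ACAT2, which makes acetoacetyl-CoA at the start of the pathway, had 71.05, 84.4 and 69.7 CPM in the day 6 libraries, against 145, 150.2 and 149 CPM in the day 3 libraries (−0.98 ± 0.07 (SE), adjusted p = 1.0e-08). LSS (−0.76), which closes the sterol ring system, fell with it. 1 library stood apart. HMGCS1, the enzyme before the rate-limiting step, had 156, 342 and 178 CPM in the day 6 libraries, against 305, 289 and 293 CPM in the day 3 libraries and did not pass (−0.39 ± 0.20 (SE), adjusted p = 0.12), but fell without day 6 replicate 2 (−0.84, adjusted p = 0.00012), and without that library 21 of the 26 genes fell. Of 13 fatty acid synthesis genes 7 fell and none rose, led by the desaturases FADS2 (−0.93) and FADS1 (−0.67), and the difference from the parental change passed for 6. Of 21 nucleotide synthesis genes 13 fell and none rose (8 fell on library size alone), and the median was −0.18. Here parental cells without doxycycline gave a similar change, with 14 of the 21 lower and none higher (median −0.28). The difference between both changes passed for 1 of the 21, more positive at day 6. UMPS of the pyrimidine path had 55.7, 45.5 and 50.9 CPM in the day 6 libraries, against 88.2, 93.5 and 96.6 CPM in the day 3 libraries (−0.87 ± 0.09 (SE), adjusted p = 5.0e-07). PFAS (−0.89) and PAICS (−0.46) of the purine path fell too.

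Glycolysis and hypoxia genes divided. Of 19 glycolysis genes 11 fell, among them LDHA, which makes lactate, at 546, 483 and 492 CPM in the day 6 libraries, against 899, 938 and 907 CPM in the day 3 libraries (−0.85 ± 0.08 (SE), adjusted p = 1.5e-07), and TPI1 (−0.65) and PGAM1 (−0.83), while ALDOC rose (1.00). Of 10 tested hypoxia targets 6 rose, with P4HA2, a collagen hydroxylase (1.03), and NDRG1 (1.65) in front, and PDK1, which turns off pyruvate dehydrogenase, rose (0.77). Parental cells without doxycycline divided likewise: 9 of the 19 glycolysis genes fell and 5 rose, and 7 of the 10 hypoxia targets rose and 1 fell. The difference between both changes passed for 4 of the 19 and 3 of the 10, each more negative at day 6.

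TXNIP, which lowers glucose uptake and is switched on by the glucose sensors MondoA (MLXIP) and ChREBP (MLXIPL), had 18.3, 19.2 and 17.6 CPM in the day 6 libraries, against 8.67, 9.26 and 8.88 CPM in the day 3 libraries (1.04 ± 0.16 (SE), adjusted p = 4.8e-05). Its rise was far smaller than in parental cells, where it had 180.1, 148 and 186 CPM without doxycycline and 19.8, 17.9 and 17.5 CPM with it (3.22 ± 0.17 (SE), adjusted p = 7.6e-10), and the difference passed (−2.18 ± 0.23 (SE), adjusted p = 2.1e-05). ARRDC4, its close relative, gave 0.32, adjusted p = 0.02 at day 6, a call that did not hold without day 3 replicate 2 (0.26), day 3 replicate 3 (0.29) or day 6 replicate 1 (0.22), and 1.54, adjusted p = 2.6e-08 in parental cells. The TXNIP promoter is shown because it is the only 1 of the 6 promoters of this list with the carbohydrate response element that those sensors bind, searched as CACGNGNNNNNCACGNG on both strands and found in 20 of all 27305 promoters (0.0732%); capitals mark it.
TXNIP, chr1:145996621-145996697, minus strand: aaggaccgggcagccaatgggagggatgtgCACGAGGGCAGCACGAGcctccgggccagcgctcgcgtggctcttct
Of the 7 genes of this list 5 rose, including HBP1 (1.16) and MLXIPL (1.41).

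Genes linked to growth arrest rose. Of 18 brakes on mTORC1 and growth-arrest genes 12 rose and 1 fell (median 0.69). DEPP1, a FOXO target, had 5.70, 6.95 and 5.79 CPM in the day 6 libraries, against 0.292, 0.258 and 0.188 CPM in the day 3 libraries (4.64 ± 0.34 (SE), adjusted p = 1.4e-08). DEPTOR, a subunit that inhibits mTORC1, had 11.4, 17.02 and 12.9 CPM in the day 6 libraries, against 5.09, 4.36 and 3.63 CPM in the day 3 libraries (1.66 ± 0.16 (SE), adjusted p = 2.7e-07). YPEL1 (1.07), YPEL2 (1.28), YPEL3 (1.45) and YPEL5 (1.19) and the cyclin-dependent kinase inhibitor CDKN1B (0.75) rose. Of 12 tested FOXO targets 9 rose and none fell, with BCL6 (1.04) and FOXO3 (0.52). Both lists also moved in parental cells without doxycycline, with 11 of 18 and 8 of 12 higher. DNA replication genes fell in 22 of 37 cases and rose in 3 (median −0.24), FEN1, which trims Okazaki fragments, having 155, 133 and 142 CPM in the day 6 libraries, against 223, 246 and 258 CPM in the day 3 libraries (−0.76 ± 0.07 (SE), adjusted p = 1.8e-07). RRM2 (−0.56), which makes deoxyribonucleotides, and GINS4 (−0.81), part of the replicative helicase, fell, and the licensing factor CDT1 rose (0.64, adjusted p = 2.1e-06). Mitosis genes went the other way, 17 of 32 rising and 3 falling (median 0.21), with KIF2C (0.71), NDC80 (0.64) and KIF23 (0.48), which act on the spindle. TOP2A, which untangles chromosomes, averaged 1296 ± 112.3 CPM at day 6 and 923 ± 24.4 CPM at day 3 (SD, n = 3; 0.49, adjusted p = 3.9e-05). The 3 that fell were BIRC5, UBE2C and CCNB1. Their number was 0 without day 3 replicate 2 or without the length trend, and 1 without day 6 replicate 1 or 3. Replication and mitosis genes also moved in parental cells without doxycycline. There 23 of the 37 replication genes fell and 2 rose (median −0.22), and 14 of the 32 mitosis genes rose and 2 fell (median 0.17).

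The 3 most abundant genes that rose were SOX2, POU5F1 and MYC, factors used to reprogram cells. HAP1 arose in an attempt to reprogram KBM-7 with POU5F1 (OCT4), SOX2, KLF4 and MYC. SOX2 had 3721, 4311 and 4243 CPM in the day 6 libraries, against 2169.6, 2063 and 2142 CPM in the day 3 libraries (0.95 ± 0.11 (SE), adjusted p = 2.8e-06). POU5F1 had 2387, 2811 and 2734 CPM in the day 6 libraries, against 1765, 1582 and 1674 CPM in the day 3 libraries (0.66 ± 0.09 (SE), adjusted p = 8.2e-06). MYC had 1572, 1793 and 1795 CPM in the day 6 libraries, against 963, 862 and 904 CPM in the day 3 libraries (0.92 ± 0.11 (SE), adjusted p = 2.4e-06). For all 3 genes each day 6 library exceeded each day 3 library. KLF4 was low at both times, 4.23 ± 0.792 CPM at day 6 and 2.43 ± 0.338 CPM at day 3 (SD, n = 3; 0.80, adjusted p = 0.0022), and NANOG, a pluripotency gene outside that set and looked up after the others had been seen, had 0 counts in all 6 libraries. In the deleted line the SOX2 mean was 2465 ± 322 CPM with the drug, 2125 ± 55.2 at day 3, 4091 ± 323 at day 6 and 1987 ± 200.4 at day 9 (SD, n = 3 each). The same genes rose in parental cells without doxycycline, SOX2 by 0.78, POU5F1 by 0.66 and MYC by 0.54, and the difference from that change did not pass for SOX2 (0.17, adjusted p = 0.56), POU5F1 (0.00, adjusted p = 0.99) or MYC (0.38, adjusted p = 0.13). Reads of integrated copies and of the cells' own genes are not separated in gene counts. In the MYC network 7 of 10 genes rose, including MYCL (0.85), and MGA, a repressor, fell (−0.49), while the ribosome biogenesis genes, known as MYC targets, fell as given above.

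Other stress and signalling lists moved in part. Of 7 tested metallothionein and zinc genes 6 fell (median −0.94), MT2A having 19.5, 22.7 and 20.04 CPM in the day 6 libraries, against 51.6, 47.05 and 45.5 CPM in the day 3 libraries (−1.21 ± 0.10 (SE), adjusted p = 5.0e-08), and the difference from the parental change passed for 3. Reads of this family of near-identical genes may be shared between members. Of 21 immediate early genes 6 rose (28.6%, against 21.9% of all genes) and 2 fell, FOSL1 (−0.65) and CCN1 (−0.44, adjusted p = 0.044), of which CCN1 no longer passed without each of the 6 libraries in turn (−0.48 to −0.41) or without the length trend (−0.31). In parental cells none rose and 5 fell. The difference between both changes passed for 2 of the 21, a share close to the 8.16% of all genes. FOS had 5.47, 5.11 and 8.08 CPM in the day 6 libraries, against 1.67, 1.49 and 1.29 CPM in the day 3 libraries (2.07 ± 0.30 (SE), adjusted p = 2.2e-05), and parental cells gave −0.28, adjusted p = 0.52 (difference 2.35, adjusted p = 0.0027). Of 20 NRF2 targets, antioxidant genes, 9 fell (45%, against 20.8% of all genes) and 2 rose (10%), PRDX1 among those that fell (−0.64). In parental cells without doxycycline 11 of them fell and 1 rose. Of 19 tested p53 targets 7 rose and 7 fell (4 without day 3 replicate 2), TP53I3 (−1.52) being the most reduced. Each share was 36.8%, against 21.9% and 20.8% of all genes. In parental cells without doxycycline 6 rose and 6 fell, and the difference between both changes passed for none. Interferon genes rose in 7 of 26 cases, with IFITM1 (2.25) and HLA-B (0.63), and fell in 5, with BST2 (−0.53), shares of 26.9% and 19.2% that lie close to those of all genes. The paraspeckle scaffold NEAT1, a nuclear RNA, had 13.04, 18.2 and 17.7 CPM in the day 6 libraries, against 4.53, 4.82 and 5.75 CPM in the day 3 libraries (1.70 ± 0.18 (SE), adjusted p = 1.1e-06), and MALAT1 rose too (0.45, adjusted p = 0.01), a call that did not hold without day 6 replicate 2 (0.36). The paraspeckle proteins SFPQ (−0.25, adjusted p = 0.019) and NONO (−0.26, adjusted p = 0.024) fell. The call of SFPQ did not hold without day 3 replicate 2 (−0.24), day 3 replicate 3 (−0.23) or day 6 replicate 1 (−0.23), and that of NONO without day 3 replicate 2 (−0.25), day 3 replicate 3 (−0.24) or day 6 replicate 3 (−0.26).

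The largest changes lay among genes of low level. Of those that rose, DMGDH, a mitochondrial enzyme of choline breakdown, had 18.9, 15.4 and 21.1 CPM in the day 6 libraries, against 1.23, 1.15 and 1.29 CPM in the day 3 libraries (3.91 ± 0.21 (SE), adjusted p = 5.7e-10). BEST1, a chloride channel, had 36.2, 24.8 and 36.3 CPM in the day 6 libraries, against 2.59, 2.98 and 3.20 CPM in the day 3 libraries (3.47 ± 0.21 (SE), adjusted p = 1.3e-09). Both changes exceeded the parental ones, with differences of 2.02, adjusted p = 2.7e-04, and 2.89, adjusted p = 1.3e-05. CTCFL, a germ-line relative of the insulator protein CTCF (4.37), the receptor LGR6 (3.996) and the GTPase REM2 (5.10) were also among the 12 largest, whose range was 3.41 to 5.63. DLK1, an imprinted gene that blocks differentiation, had 4.98, 6.12 and 5.71 CPM in the day 6 libraries, against 0.548, 0.355 and 0.795 CPM in the day 3 libraries (3.31 ± 0.23 (SE), adjusted p = 1.0e-08), more than in parental cells (difference 3.22, adjusted p = 1.3e-05). Of those that fell, the imprinted RNA H19 had 0.431, 0.527 and 0.471 CPM in the day 6 libraries, against 5.37, 0.936 and 8.32 CPM in the day 3 libraries (−3.35 ± 0.72 (SE), adjusted p = 9.2e-04), the day 3 libraries themselves ranging widely. LGSN had 1.60, 0.779 and 1.18 CPM in the day 6 libraries, against 10.2, 10.8 and 11.2 CPM in the day 3 libraries (−3.18 ± 0.23 (SE), adjusted p = 1.4e-08) and the matrix gene POSTN had 0.156, 0.154 and 0.226 CPM in the day 6 libraries, against 1.55, 1.17 and 1.03 CPM in the day 3 libraries (−2.79 ± 0.28 (SE), adjusted p = 1.1e-06), without overlap.

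**Figure D4:**
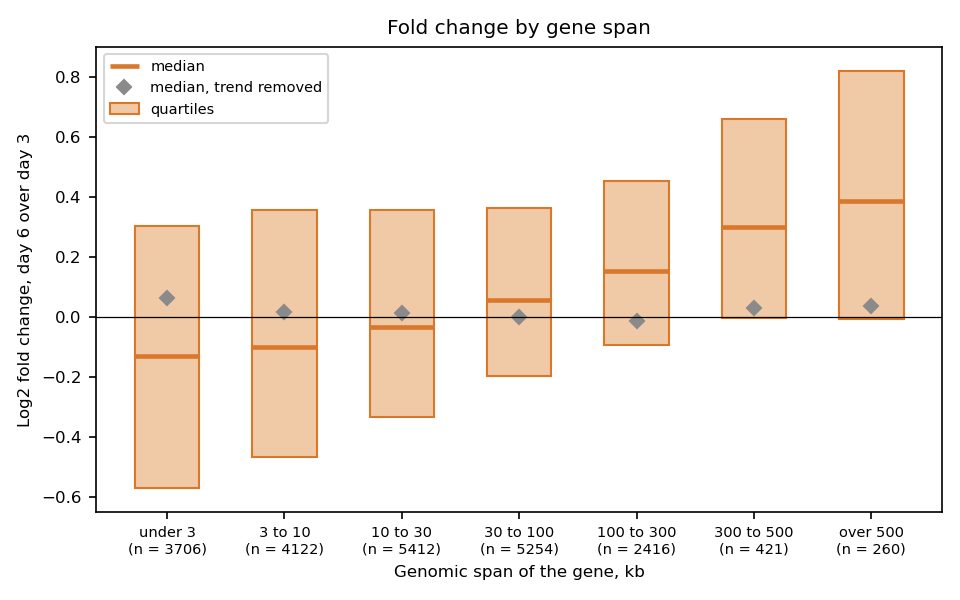
Log2 fold change of day 6 over day 3 (vertical) by genomic span of the gene in kb (horizontal classes), as boxes from the lower to the upper quartile with the median as a line, and as grey diamonds the medians after the trend with span and exonic length was removed. Medians climb with span, and the diamonds lie near 0.

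Fold changes followed gene length. Under 3 kb of genomic span, introns included, 7.91% of 3706 genes rose and 16.5% fell (median −0.13), and over 500 kb 45.8% of 260 genes rose and 6.54% fell (median 0.39). Spearman's rho between span and log2 fold change was 0.18 across 21591 genes and 0.32 across the 10552 of at least 10 CPM, and −0.02 once a smooth trend in span and exonic length had been removed. The parental comparison gave medians of −0.08 and 0.11 in the same classes. Short genes make up several of the gene groups above, the mitochondrial and cytosolic ribosome and the respiratory chain, and their values without the trend stand beside them. Without the trend 4545 genes rose and 4439 fell. ATF4 targets then gave 34 higher of 43, and ribosome biogenesis genes 30 lower of 35.

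Genes of chromosome 3 had a lower day 6 mean than those of any other chromosome, a pattern looked for after the values had been seen. Of 1280 tested genes on it 33% fell and 14.4% rose (median −0.18), against 20% and 22.4% of the 20335 genes elsewhere. Across the 611 chromosome 3 genes of at least 10 CPM, the median log2 level relative to day 3, minus that of the other chromosomes, was −0.18, −0.15 and −0.17 in the day 6 libraries and −0.0056 to 0.0048 in the day 3 libraries. The other 22 chromosomes, X included and Y left out, had day 6 means between −0.08 (chromosome 16) and 0.13 (chromosome 18), with single libraries from −0.13 to 0.14, against a mean of −0.17 for chromosome 3. In each of 20 segments of 10 Mb the day 6 median against day 3, here without subtracting other chromosomes, was below 0 (−0.30 to −0.0071). On that scale the other chromosomes stood at −0.013, −0.0011 and −0.028 in the day 6 libraries. The highest segment therefore did not lie clearly below them. Removing the length trend left the median of the 1280 genes at −0.18. With the other chromosomes subtracted again, chromosome 3 stood at −0.09 ± 0.02 in the deleted line on doxycycline and −0.16 ± 0.02 at day 9. In parental cells it stood at −0.29 ± 0.03 without and −0.34 ± 0.0019 with doxycycline (SD, n = 3 each), so the day 3 libraries had the highest chromosome 3 level of all groups. DNA copy number was not measured. SOX2 lies on chromosome 3 and rose all the same.

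**Figure D5:**
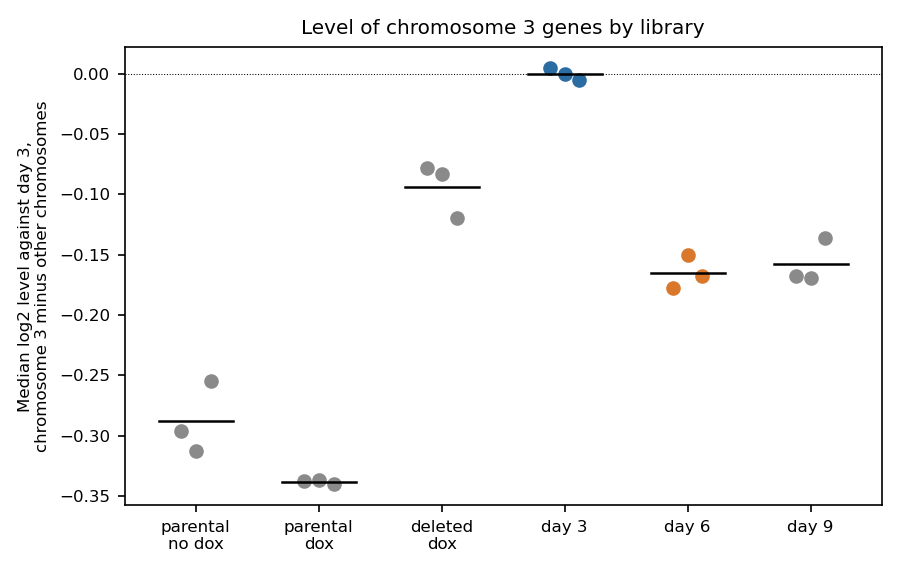
Median log2 level of chromosome 3 genes relative to the mean of the day 3 libraries, minus the median of all other chromosomes (vertical), in each library (points) of the 6 groups with group means (bars). The day 6 libraries lie at −0.18 to −0.15 and the day 3 libraries near 0, with parental libraries lowest.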

How the data were processed

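Per the labels' protocols, the 18 libraries (6 groups of 3) were sequenced as 151-bp pairs (Illumina NovaSeq). The authors deposited raw counts per gene for 59251 genes. Tools named in the submitters' processing notes are featureCounts, Subread, HISAT2, SAMtools, cutadapt 2.3 and DESeq2, with the build GRCh38. The annotation release and the strand setting of the counting were not stated. Of the parental table's genes, 16 broken over lines were rejoined.

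Low-count genes were removed by edgeR's group filter. All 18 libraries, with 79576230 to 96123623 counts at day 6 and day 3, were fitted together in edgeR 4.0.16 (R 4.3.3; TMM scaling, 6 group means, quasi-likelihood test, Benjamini-Hochberg adjustment, threshold 0.05), which was tested on simulated data. SEs were taken as the size of the log2 fold change over the square root of F, an approximation. The trend with span and exonic length was fitted with mgcv 1.9.3 as an offset. Alternatives included DESeq2 1.42.0, other scalings and filters, and leaving out each library. The labels do not say that replicates were separate cultures, so the spread behind the p-values may be technical.

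The comparison, its 43 gene lists and the genes named were chosen with earlier results of these data known. The rule names SARS2 and other genes of known role, up to 4 called members per list and those called against their list's direction, the 12 largest changes in each direction (at least 1 CPM, no overlap between groups, called without each library) and the 5 most abundant called genes in each direction. CALR, CDKN1B, EIF2B2, HMGCS1, HSPA5, HSPA8, KLHL24, KRT18, NANOG, NONO, PHGDH, SESN2, SFPQ, SHMT2, SLC1A5, SLC38A2, SLC3A2, SLC6A9, SLC7A11, SLC7A5, VEGFA, VIM, YPEL3 and YPEL5 were added after their values were seen.

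Reads of overlapping or near-identical genes cannot be assigned with certainty without the strand setting: SARS2 and MRPS12 adjoin each other, and POU5F1, the metallothioneins and ribosomal protein genes have close copies. Promoter sequences came from RefSeq (GRCh38.p14), matched by symbol for 14347 of 21615 tested genes.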

Additional observations from a re-analysis of the deposited data

How the results depend on the processing

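Day 6 against day 3 called 9234 genes, and between 8015 (mean of at least 1 CPM) and 10831 (only the 6 libraries) under the other scalings, filters and tools, with 7586 to 8721 without 1 library. With DESeq2, 9199 of the 9234 genes were called in the same direction, and 7788 without the trend in span and exonic length. On library size alone 59.7% of called genes were higher, against 51.3% with TMM, and the median of all genes was 0.069 in place of 0.0060. List members called numbered 637, and 544 to 609 without 1 library. The parental comparison called 8519 genes, and 6916 to 8214 without 1 library. The difference between both changes depended most on the setting: 1764 genes, 2695 with DESeq2 and 1041 to 2329 without 1 library; fewer samples were fitted in the last, and the cause of the DESeq2 count was not tested.

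Of 160 named genes, 24 changed call or direction at least once in the day 6 comparison, and 2300 of 2393 values kept both. Signs turned only for changes that did not pass, and the cause was not tested. ATF4 was 0.0070 on library size alone, 0.093 without the length trend and 0.094 without it and with the replicate block. SLC38A2 was −0.0039 in the fit of the 6 libraries and −0.027 to 0.023 without 1 library, SLC6A9 −0.012 to 0.13 and KRT18 −0.11 to 0.13. FOS in parental cells ranged from −0.47 to 0.052 without 1 library. The POU5F1 difference between both changes was −0.000382 with no low-count filter, −0.042 without the length trend and −0.041 to 0.085 without 1 library.

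Deviations from the group means of same-numbered day 6 and day 3 libraries correlated at −0.27, −0.08 and 0.09 across genes, and not every library correlated best with its own number. With only 3 libraries a group, these values cannot show whether equal replicate numbers shared a culture or a day. With the replicate block 9067 genes were called, 8930 of them also in the fit without it and in the same direction, and no named gene changed call. In the parental comparison the block gave 8421 genes and for the difference 1598. Depth limits the precision for genes of few counts such as FGF21.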
